A study of Mus musculus with 8 samples.

Results

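Copying the genome once per division needs a machinery that is loaded in G1 and fired in S phase. The origin recognition complex, with Cdc6 and Cdt1, loads the Mcm2-7 ring on origins. Cyclin E with its kinase and the Dbf4-Cdc7 kinase then turn the ring, Cdc45 and the GINS complex into an active helicase, behind which polymerases, the Pcna clamp and fork protection factors work. E2f1 and E2f2 are known to switch on many of these genes, and E2f7 and E2f8 to hold them down again later in S phase. Germinal center B cells divide very fast and are known to express these genes strongly.

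The set described here comprises 51 genes of this machinery, given as a list of symbols, out of 39017 genes in the table. All 51 were found and all 51 passed the filter on low values, a mean of at least 10 normalized counts, as did 16250 genes in all. They were divided by role into 12 helicase genes, 9 origin licensing genes, 6 clamp and clamp loader genes, 8 polymerase and primase genes, 9 G1/S regulators and 7 genes of fork protection, checkpoint and methylation maintenance. Positions of genes and exons are in GRCm38. No member was near the detection limit, since the lowest value in any library was 420 normalized counts, for E2f7.

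The libraries came from iGBs, splenic B cells of C57BL6/J mice grown on 40LB cells, which are feeder cells that supply BAFF and CD40L. IL-4 was added at 1 ng per mL, and the cells were taken at day 4. In 4 control libraries the mice carried Cγ1-cre, and in 4 Prmt5-null libraries they carried Prmt5 F/F and Cγ1-cre, so that both groups had the cre and each library was from 1 mouse. Cγ1-cre acts in B cells once they are activated, so deletion depends on activation and need not reach every cell. Prmt5 encodes the main enzyme for symmetric arginine dimethylation. The authors describe the loss of Prmt5 and of this modification as complete in iGBs at day 4. By the mouse numbers in the labels, the controls are CTRL-10650 and CTRL-10370, then CTRL-10596 and CTRL-10597, and the Prmt5-null libraries are PRMT5-10617, PRMT5-10618, PRMT5-10770 and PRMT5-10771. Normalized counts per library follow these orders throughout.

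Prmt5 fell in every Prmt5-null library. It had 13088, 11084, 11657 and 11267 normalized counts in controls against 1291, 1994, 1060 and 1808 in Prmt5-null libraries (log2 fold change -2.98, limma adjusted p = 6.14e-06). Depth was 36731721 to 50366174 reads on genes in controls and 42752293 to 47174851 in Prmt5-null libraries. B cell identity genes were abundant in both groups, with Ms4a1, Cd79b and Pax5 not called, although Cd79a was lower (log2 fold change -0.74, limma adjusted p = 0.000327). The 16 fibroblast markers, which the feeder cells could bring, summed to between 5292 and 9152 normalized counts in controls. In Prmt5-null libraries they summed to between 7894 and 13517. Of the 13 tested 3 were called, all higher (23.1%, beside 6.51% of all genes called higher). The 8 myeloid markers in the table summed to between 104 and 217 in controls and between 173 and 298 in Prmt5-null libraries. S100a8 and S100a9 were at 0 in every library. Of the 3 tested 1 was called (33.3%, beside 13.8% of all genes). That was Emr1, the macrophage marker F4/80, which rose from 123, 96.3, 115 and 71.1 to 134, 200.1, 181 and 141 without overlap (log2 fold change 0.70, limma adjusted p = 0.0424). The 8 T cell markers summed to between 171 and 243 in controls and between 209 and 327 in Prmt5-null libraries, mostly from Cd5, with Cd3e at 0 in every library and neither of the 2 tested called. Of 5 plasma cell markers 2 were called, both lower (40%, beside 7.33% of all genes called lower). Of 5 germinal center markers 3 were called (60%, beside 13.8% of all genes): Fas was higher, and Gcsam and S1pr2 were lower. Estimates of these 5 ran from -1.49 to 0.66 on the log2 scale. The part of RNA from feeder or other cells in the values below was not tested. In bulk RNA, fewer cells in S phase and less RNA per cell cannot be told apart.

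Summed over the set, the genotypes were within the spread between libraries. The counts of all 51 members summed to 305558 ± 12246 in controls (SD, n = 4) and 305327 ± 13870 in Prmt5-null libraries (SD, n = 4). The median log2 fold change of the members, Prmt5-null minus control, was -0.05, beside 0.00238 over all 16250 genes tested. The median size of the change, without its sign, was 0.134 among members and 0.193 among all genes. Of the members, 20 had a positive and 31 a negative estimate, and 46 lay within 0.3 of 0.

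The test was limma's on the log2 scale after adding 1 to each value, and p-values were adjusted over all genes tested by Benjamini-Hochberg. At an adjusted p below 0.05, 7 of the 51 members passed (13.7%) and are termed called, where 13.8% of all genes tested were. Orc4 and Timeless rose, 2 members where 6.51% of all genes were called higher. Mcm7, Cdc6, Pold1, Ccne1 and E2f8 fell, 5 members where 7.33% of all genes were called lower. At a change of at least 1.5-fold as well, 0 members were called, where 6.48% of all genes were. For 48 of the 51 members the 95% interval of the change lay inside 1.5-fold in both directions, and the exceptions were Orc4, Ccne1 and E2f8. The same was so for 57.4% of all genes tested. The number of calls depended on the tool: with DESeq2 13 members (25.5%) and 18.9% of all genes were called, and with limma without the trend 3 members (5.88%) and 11% of all genes. The members had a median standard error of 0.0886 on the log2 scale, against 0.129 over all genes. Their mean normalized counts ran from 557 to 29191, while the genes tested went down to a mean of 10. The values given for all genes, here and above, were not matched to the members for level.

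**Figure D1:**
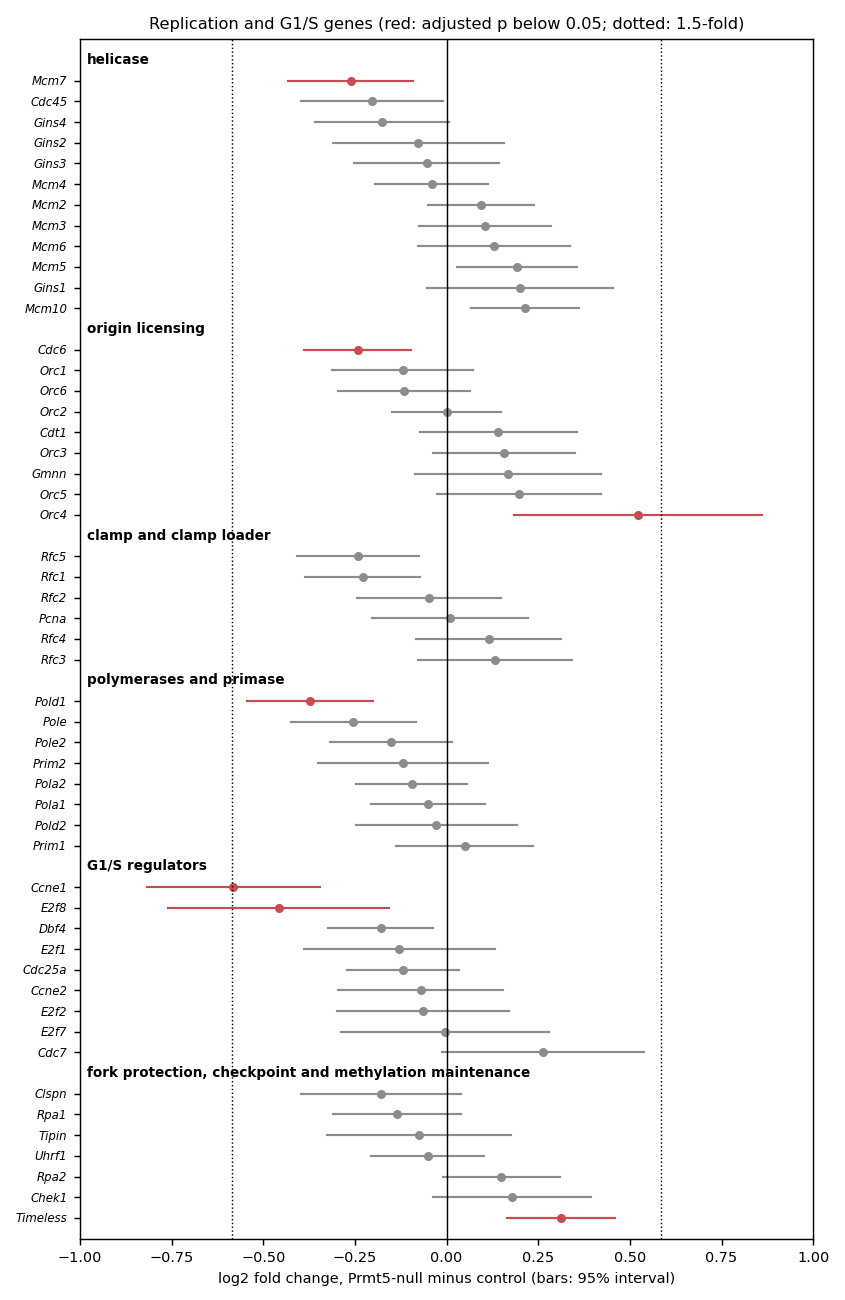
Log2 fold change (Prmt5-null minus control) of each of the 51 members with its 95% interval, by role; red marks adjusted p below 0.05 and dotted lines mark 1.5-fold. All estimates lie inside the dotted lines, with Ccne1 at -0.58 the farthest below 0 and Orc4 at 0.52 the farthest above.

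The libraries of the genotypes did not overlap for 12 members (23.5%), a pattern that 19.8% of all genes tested had. These 12 were Mcm5, Mcm7, Mcm10, Cdc6, Rfc1, Rfc5, Pold1, Pole, Ccne1, Cdc25a, Dbf4 and Timeless, of which 5 were also called.

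Among the helicase genes, 1 of 12 was called, the ring subunit Mcm7 (chr5:138164583-138172422, minus strand), which fell. It had 11855, 13018, 11478 and 11614 normalized counts in controls and 10051, 9562, 11094 and 9346 in Prmt5-null libraries. The highest Prmt5-null value lay under the lowest control value, and the ratio of the means was 0.835 (log2 fold change -0.26, SE 0.08, limma adjusted p = 0.0451). The call is a close one: edgeR's quasi-likelihood test gave an adjusted p of 0.0506, and only leaving out PRMT5-10770, of the 8 libraries left out in turn, kept it (adjusted p = 0.0125), with 0.138 without PRMT5-10771 as the highest. Exons of Mcm7 overlap those of Ap4m1 on the opposite strand over 7.25% of their length, and the strand setting of the counting is not given in the sources used here. The same limit holds for members not called, with overlaps of 67.3% for Gins2, 29.8% for Orc2 and 17.4% for Ccne2.

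The other ring subunits were not called. Mcm5 had 18835, 19656, 18682 and 19191 normalized counts in controls and 22334, 19836, 23663 and 21610 in Prmt5-null libraries, with no overlap (log2 fold change 0.19, adjusted p = 0.111). Mcm6, the helicase gene with the highest counts, had 28581, 29968, 25245 and 27616 in controls and 30917, 26651, 34911 and 29637 in Prmt5-null libraries, which overlapped (log2 fold change 0.13, adjusted p = 0.402). For Mcm2 the estimate was 0.09, for Mcm3 0.11 and for Mcm4 -0.04 on the log2 scale. The subunits, which form the ring in equal numbers, summed to 104565 ± 4293 normalized counts in controls and 110000 ± 7922 in Prmt5-null libraries (SD, n = 4 each).

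Mcm10, which helps to activate the loaded helicase, separated by genotype without passing the threshold. Its values were 4341, 4833, 4522 and 4696 in controls and 5278, 5120, 5390 and 5542 in Prmt5-null libraries (log2 fold change 0.21, adjusted p = 0.0549), and edgeR called it at an adjusted p of 0.0445. Cdc45, the partner of the ring in the active helicase, had an estimate of -0.20 (adjusted p = 0.15), and its groups overlapped. The GINS subunits, which hold Cdc45 to the ring, ranged from -0.18 for Gins4 to 0.20 for Gins1 on the log2 scale, and none was called.

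Of the origin licensing genes 1 rose and 1 fell. Orc4 (chr2:48902824-48950277, minus strand), a subunit of the origin recognition complex, had 2178, 2315, 2238 and 2669 normalized counts in controls and 2908, 4754, 2621 and 3534 in Prmt5-null libraries. PRMT5-10618 stood far above the rest, and PRMT5-10771 next, while the lowest Prmt5-null library lay below the highest control (log2 fold change 0.52, SE 0.16, limma adjusted p = 0.0442). Without PRMT5-10618 the log2 fold change was 0.36 and the adjusted p 0.0551. The call held without PRMT5-10617 and without PRMT5-10770, at 0.59 and 0.64, and was lost without any of the other 6 libraries. Orc4 shares 5.98% of its exon length with Acvr2a on the opposite strand.

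Cdc6 (chr11:98907801-98923940, plus strand), the loader that brings the ring to origins, fell and had the narrowest Prmt5-null range of the called genes. The values of Cdc6 were 3623, 4000, 3946 and 3771 in controls and 3187, 3340, 3208 and 3225 in Prmt5-null libraries, with no overlap (log2 fold change -0.24, SE 0.07, limma adjusted p = 0.0325). The adjusted p reached 0.0898 without PRMT5-10771, and the call was kept without CTRL-10650, PRMT5-10618 or PRMT5-10770 only. Cdt1, which works with Cdc6, and geminin (Gmnn), which blocks Cdt1 after S phase begins, had estimates of 0.14 and 0.17 on the log2 scale and were not called. The other subunits of the complex ranged from -0.12 for Orc1 to 0.20 for Orc5, and Orc2 was at 5839 normalized counts in the mean of either genotype. Orc5 had the highest counts of this group, with 6461, 7468, 6255 and 5881 in controls and 6530, 7148, 8824 and 7458 in Prmt5-null libraries, which overlapped (adjusted p = 0.225).

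The clamp and its loader gave no call. Pcna, the sliding clamp, had 11133, 13843, 11822 and 12026 normalized counts in controls and 11724, 11247, 14531 and 11741 in Prmt5-null libraries. The groups overlapped (log2 fold change 0.01, 95% interval -0.20 to 0.22, adjusted p = 0.965). Of the loader subunits, Rfc1 and Rfc5 separated by genotype and just missed the threshold, at -0.23 and -0.24 on the log2 scale (adjusted p = 0.0557 and 0.0559). Rfc3, Rfc4 and Rfc2 were at 0.13, 0.11 and -0.05.

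Of the polymerase and primase genes 1 of 8 was called. Pold1 (chr7:44532746-44548849, minus strand), the catalytic subunit of polymerase delta, the main lagging strand enzyme, fell from 6517, 7317, 7080 and 6087 normalized counts in controls to 5521, 4890, 5347 and 5078 in Prmt5-null libraries. The highest Prmt5-null library lay below the lowest control, and the ratio of the means was 0.772 (log2 fold change -0.37, SE 0.08, 95% interval -0.54 to -0.20, limma adjusted p = 0.00897). This call held without each library in turn, at an adjusted p of 0.0346 or less. Pole, the catalytic subunit of the leading strand polymerase epsilon, had 7633, 7297, 7338 and 8529 in controls and 6695, 6575, 5858 and 6679 in Prmt5-null libraries, again without overlap, and lay at the threshold itself (log2 fold change -0.25, adjusted p = 0.0501). Their accessory subunits Pold2 and Pole2 were at -0.03 and -0.15, and the polymerase alpha and primase subunits Pola1, Pola2, Prim1 and Prim2 between -0.12 and 0.05 on the log2 scale.

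Of the G1/S regulators 2 fell and 0 rose. Ccne1 (chr7:38097984-38107534, minus strand), which encodes cyclin E1, had the largest change of any member. It had 1514, 1377, 1539 and 1608 normalized counts in controls and 1240, 1001, 888 and 932 in Prmt5-null libraries, and the mean fell to 0.673 of control (log2 fold change -0.58, SE 0.11, 95% interval -0.82 to -0.34, limma adjusted p = 0.00463). The groups did not overlap, and PRMT5-10617 was the nearest to the controls. Leaving out that mouse moved the estimate to -0.68, past 1.5-fold, and the call held without each library in turn, at an adjusted p of 0.0201 or less. Ccne2, which encodes cyclin E2, was at 2416 ± 260 in controls and 2304 ± 256 in Prmt5-null libraries (SD, n = 4 each) and was not called (log2 fold change -0.07, 95% interval -0.29 to 0.16).

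E2f8 (chr7:48866429-48881596, minus strand), a repressor of E2F targets, had 2345, 2124, 2285 and 3139 normalized counts in controls and 2165, 1869, 1465 and 1692 in Prmt5-null libraries. PRMT5-10617 lay above the lowest control, and CTRL-10597 was far above the others (log2 fold change -0.46, SE 0.14, limma adjusted p = 0.0466). Without CTRL-10597 the estimate was -0.34 and the adjusted p 0.114, and the call was kept without CTRL-10370 or PRMT5-10617 only. E2f8 shares 11.2% of its exon length with the opposite-strand gene Gm2788. Its partner E2f7 was at 555 ± 17.95 in controls and 560 ± 97.6 in Prmt5-null libraries (SD, n = 4 each), and the activators E2f1 and E2f2 were at -0.13 and -0.06 on the log2 scale, none of them called.

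Neither gene of the kinase pair that fires origins was called. Dbf4, the activating subunit, had 5367, 5511, 5256 and 5578 normalized counts in controls and 4689, 4925, 4590 and 4965 in Prmt5-null libraries, with no overlap (log2 fold change -0.18, adjusted p = 0.0887). Cdc7, the catalytic subunit, had 2282, 2806, 3198 and 3178 in controls and 3090, 4124, 3005 and 3517 in Prmt5-null libraries, which overlapped (log2 fold change 0.26, adjusted p = 0.191). Cdc25a, the phosphatase that activates cyclin E and its kinase, was at -0.12 (adjusted p = 0.286).

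Timeless (chr10:128232065-128252941, plus strand), which with Tipin holds the fork together and relays damage signals, rose. It had 3528, 3709, 3852 and 3951 normalized counts in controls and 4776, 4522, 4641 and 4720 in Prmt5-null libraries. All Prmt5-null values lay well above the highest control, 1.24 times as high in the mean (log2 fold change 0.31, SE 0.07, 95% interval 0.17 to 0.46, limma adjusted p = 0.00979). The call held without each library in turn, at an adjusted p of 0.0376 or less. Tipin, its binding partner, was at -0.08 and was not called (adjusted p = 0.715). Chek1, the kinase that slows S phase after damage, was at 0.18, and Clspn, which brings Chek1 to the fork, at -0.18 on the log2 scale, both not called. The single-strand binding subunits Rpa1 and Rpa2 were at -0.13 and 0.15. Uhrf1, which carries DNA methylation over to the new strand and had the highest counts of this role, had 19073, 20498, 20104 and 20149 in controls and 19552, 18005, 20394 and 19097 in Prmt5-null libraries, which overlapped (log2 fold change -0.05, adjusted p = 0.672).

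**Figure D2:**
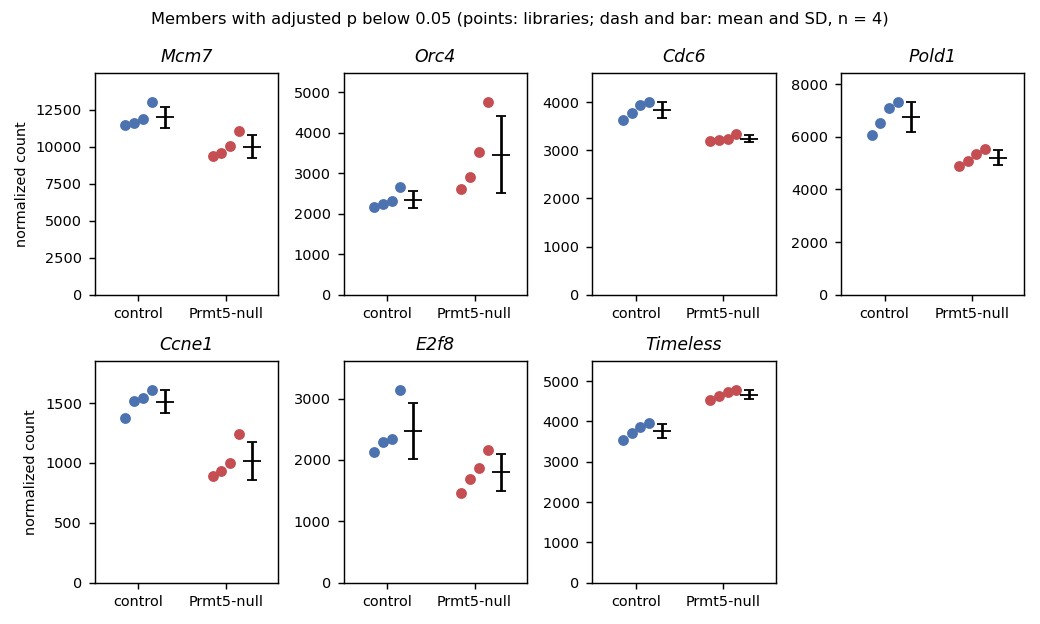
Normalized counts of the 7 called members in each of 4 control and 4 Prmt5-null libraries, with mean and SD beside the points and each axis starting at 0. Groups are apart for Mcm7, Cdc6, Pold1, Ccne1 and Timeless and overlap for Orc4 and E2f8, where the spread is wide.

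Ccne1, Pold1 and Timeless were called in all 35 fits compared, which included other tools, filters, left-out libraries and placements of the experiment as a block. The other called members, Mcm7, Orc4, Cdc6 and E2f8, were lost in some of them.

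Levels of the members within a library could be set against each other only per length of exon. On the scale of normalized counts per kb of exons in controls, Mcm6 was highest at 5969 ± 426 (SD, n = 4), followed by Mcm3 at 5824 ± 285 and Pcna at 5086 ± 482. These spreads between libraries overlap, and differences between the genes within each library were not tested. Per kb of the longest transcript the order at the top turned, with Pcna highest at 8041 ± 762, above Mcm6 at 6396 ± 457 and Mcm3 at 6369 ± 312. On the exon scale, Mcm5 stood at 4781 ± 108, Uhrf1 at 4686 ± 144 and Mcm4 at 3930 ± 177. At the other end were Orc1 at 354 ± 10.98, Orc4 at 315 ± 29.5, E2f1 at 244 ± 32.2 and E2f7 at 61.6 ± 1.99 per kb. The ring subunits were uneven: Mcm7 was at 2709 ± 159 and Mcm2 at 1391 ± 42.7 per kb of exons, or 4048 and 2768 per kb of the longest transcript. The Prmt5-null means lay between 0.673 times these levels, for Ccne1, and 1.47 times, for Orc4, which was at 463 per kb of exons. Length was the union of all annotated exons, so genes with long rare isoforms are understated on this scale, and Orc4 was at 578 per kb of its longest transcript.

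**Figure D3:**
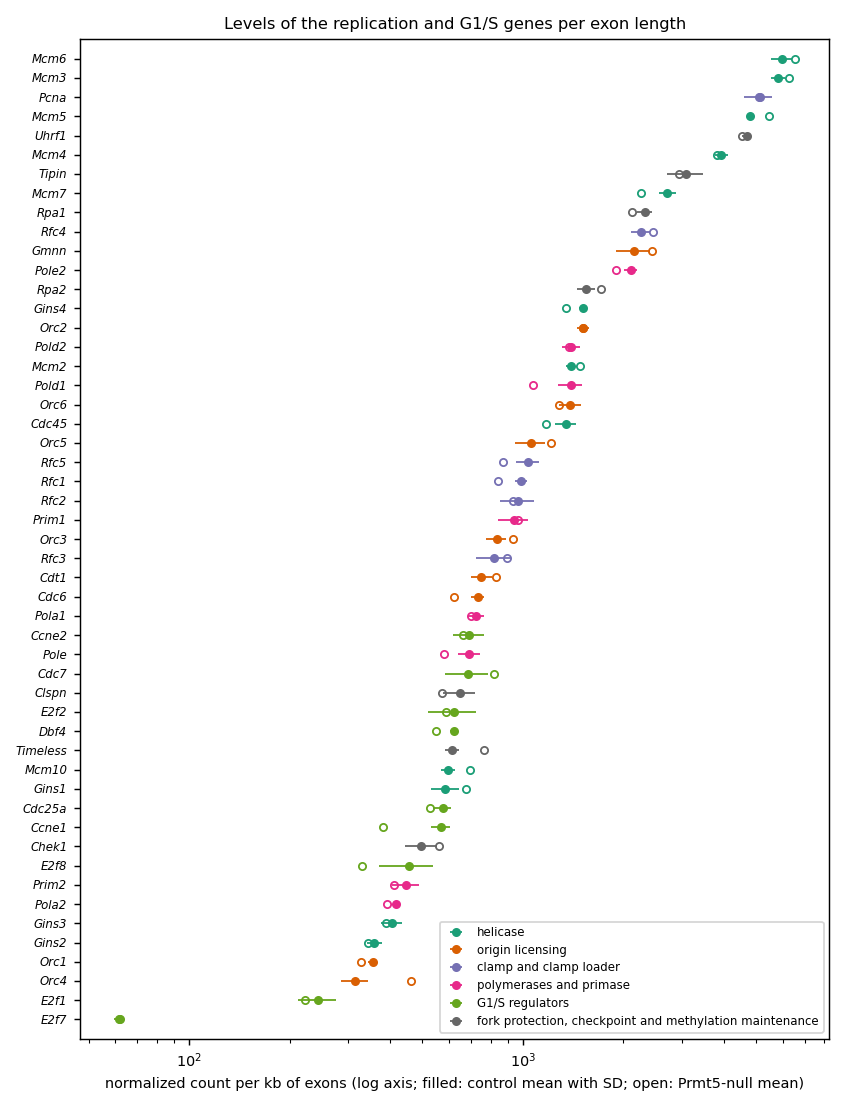
Normalized counts per kb of exons (log axis) of the 51 members, filled points with SD for controls (n = 4) and open points for the Prmt5-null mean, colored by role. Helicase genes Mcm6, Mcm3 and Mcm5 are at the top with Pcna, and E2f7 is lowest at 61.6 per kb.

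Splicing of 4 of the 51 members appeared in the authors' rMATS tables of events that differed (7.84%), where 11.4% of genes with a mean above 50 normalized counts did. These members were Pold1, Pole, Cdc7 and Orc3, with 9 rows between them. The events were deposited because they differed, so their values are a description without a test. Inclusion levels run from 0 to 1 as fractions and are the authors' values for 4 libraries of each genotype, in an order that the tables do not tie to the mice. The skipped exons are shown here because the results turn on them. Capitals mark the skipped exon and lower case the 10 bases of the neighboring exon on each side, in GRCm38 by GENCODE.

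Pold1 exon 22, chr7:44534385-44534487, minus strand: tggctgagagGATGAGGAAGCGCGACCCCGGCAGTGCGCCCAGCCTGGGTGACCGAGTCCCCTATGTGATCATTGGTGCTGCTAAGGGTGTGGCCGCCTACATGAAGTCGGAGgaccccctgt
Pole exon 35, chr5:110324160-110324266, plus strand: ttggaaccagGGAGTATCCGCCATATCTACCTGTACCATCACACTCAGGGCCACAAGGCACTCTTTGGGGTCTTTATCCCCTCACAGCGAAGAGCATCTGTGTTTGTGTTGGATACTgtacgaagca
Cdc7 exon 8, chr5:106974601-106974696, plus strand: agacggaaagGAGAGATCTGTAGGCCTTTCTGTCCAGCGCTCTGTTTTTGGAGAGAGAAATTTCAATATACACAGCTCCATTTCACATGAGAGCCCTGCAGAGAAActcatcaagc

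Pold1 had the most events, all in 1 stretch of the gene. Exon 22 of its 27, 103 bases of coding sequence, was included at 0.942, 0.943, 0.975 and 0.964 in controls and at 0.790, 0.745, 0.889 and 0.782 in Prmt5-null libraries. All Prmt5-null values were below all controls, with means of 0.956 and 0.802 by the authors' values. At least 178 reads stood behind each value. Since 103 is not a multiple of 3, leaving out the exon shifts the reading frame, and the first stop codon in the shifted frame came 77 codons after the junction, in exon 24.

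The intron after that exon, chr7:44534018-44534384 and 367 bases long, was retained at 0.145, 0.136, 0.220 and 0.205 in controls and at 0.311, 0.412, 0.277 and 0.362 in Prmt5-null libraries. Again the groups were apart, with means of 0.177 and 0.341. Read through into this intron, the frame met a TAG stop after 26 codons. The alternative 3′ splice site row of Pold1 spans the same exon and intron, at 0.838 to 0.942 in controls and 0.680 to 0.801 in Prmt5-null libraries, and counted the same skipping reads as the exon row. Its row of mutually exclusive exons covers them too, and differed on junction reads alone, from a mean of 0.371 to 0.248. These 4 rows therefore share reads and describe 1 region, not 4 independent events. The 5′ splice site of this intron is shown beside that of the retained Orc3 intron described further on, with the end of the exon in lower case before the first intron bases in capitals.

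Pold1 intron 22, chr7:44534355-44534404, minus strand: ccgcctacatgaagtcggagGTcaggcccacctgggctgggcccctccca
Orc3 intron 6, chr4:34598578-34598627, minus strand: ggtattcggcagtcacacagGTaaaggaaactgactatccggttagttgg

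Pole exon 35 of 49, with 107 bases of coding sequence, was included at 0.968, 0.991, 0.944 and 0.928 in controls and at 0.914, 0.796, 0.810 and 0.853 in Prmt5-null libraries. The groups were apart, with means of 0.958 and 0.843. Reads per library went down to 107, the lowest of these rows, and only 1 to 8 of the reads per control library skipped the exon. Leaving it out also shifts the frame, with a stop 35 codons on, in exon 36. Both catalytic subunits, of polymerases delta and epsilon, had an exon left out more often in Prmt5-null libraries. The gene count of Pold1 was called lower, and that of Pole was not called (limma adjusted p = 0.0501). Any link between the skipping and the counts was not tested.

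Exon 8 of Cdc7 went the other way, toward inclusion. This exon, 96 bases and a multiple of 3, was included at 0.713, 0.711, 0.677 and 0.673 in controls and at 0.854, 0.765, 0.873 and 0.883 in Prmt5-null libraries, with means of 0.694 and 0.844. Without it the transcript loses 32 codons and keeps its frame and stop. The alternative 3′ splice site row, whose longer form joins exon 8 to the intron behind it, went from 0.371, 0.384, 0.377 and 0.390 to 0.721, 0.651, 0.618 and 0.729, the largest shift of any member row (difference in mean 0.299). It counted the same skipping reads as the exon row. Its inclusion reads, which take in the intron, went from 746 in controls to 1263 in Prmt5-null libraries. Inclusion reads of the exon row went from 597 to 711. The row of mutually exclusive exons of Cdc7 differed on junction reads alone, from a mean of 0.672 to 0.835.

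Orc3, a subunit of the origin recognition complex, had its intron 6 of 1166 bases, chr4:34597442-34598607, retained at 0.039, 0.046, 0.063 and 0.090 in controls and at 0.143, 0.270, 0.066 and 0.167 in Prmt5-null libraries. The lowest Prmt5-null library lay inside the control range. Read through into this intron, the frame met a TAA stop after 20 codons. The gene count of Orc3 was not called (log2 fold change 0.16, adjusted p = 0.27).

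**Figure D4:**
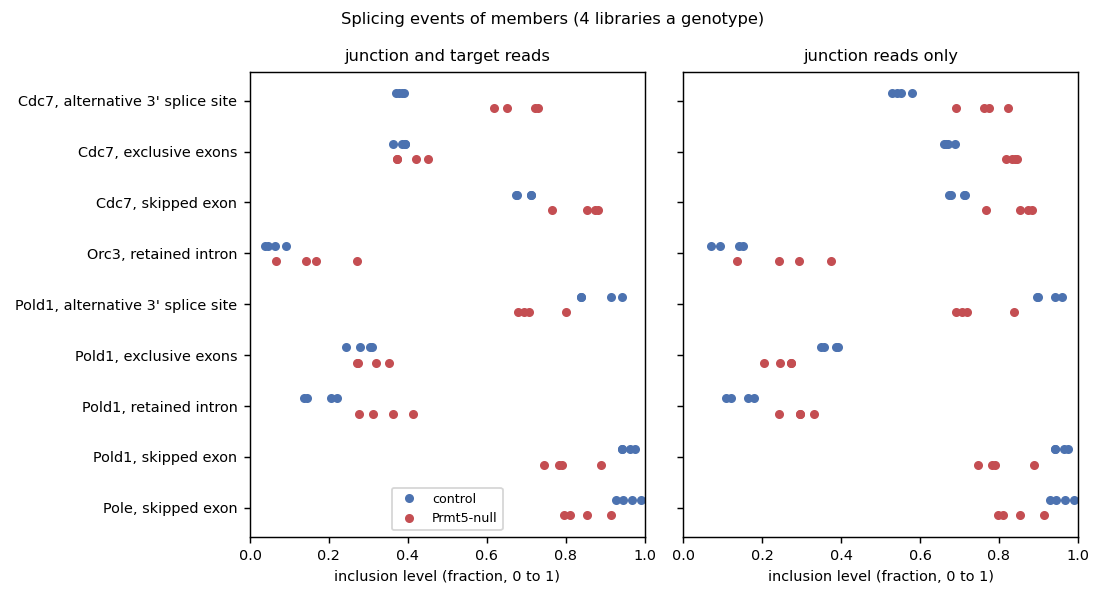
Inclusion levels (0 to 1) of the 9 rMATS rows of Cdc7, Orc3, Pold1 and Pole in 4 control and 4 Prmt5-null libraries, with junction and target reads on the left and junction reads alone on the right. Groups are apart in 6 of the rows on the left, and the rows of exclusive exons separate only on the right.

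Promoters of the members were searched for E2F-type motifs, since E2F factors are known to bind many replication genes. The motifs were TTTGGCGC, TTTCGCGC, TTTCCCGC and TTTGCCGC on both strands, from 250 bases before to 50 after each start site of RefSeq (GRCm38.p6). Promoters were found for 41 of the members, and 18 of them (43.9%) held at least 1 motif, against 2.60% of all 27025 genes with a promoter. CCAAT, the NF-Y motif, was in 63.4% of member promoters and 41.1% of all. A match is a description of letters and not of binding. The sites of the called members Mcm7, Pold1 and Cdc6 are shown, and capitals mark the motif. With them are the sites of Mcm5 and Mcm6 at which motifs on the 2 strands overlap. A further Mcm6 site, TTTGGCGC at -47 from the start site, is not shown.

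Mcm7, chr5:138172030-138172059, minus strand: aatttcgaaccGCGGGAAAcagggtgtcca
Mcm7, chr5:138171849-138171878, minus strand: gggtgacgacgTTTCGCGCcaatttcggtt
Pold1, chr7:44548766-44548795, minus strand: cacggcggcgtatcttgtgGCGGGAAAagc
Cdc6, chr11:98908002-98908031, plus strand: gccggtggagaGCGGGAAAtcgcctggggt
Mcm5, chr8:75109347-75109376, plus strand: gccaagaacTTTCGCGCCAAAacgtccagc
Mcm6, chr1:128359795-128359824, minus strand: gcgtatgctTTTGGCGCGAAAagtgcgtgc

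Over all genes tested, 13.8% were called, 7.33% as lower and 6.51% as higher. The 18 members with a motif ran from -0.37 to 0.19 on the log2 scale, with 3 called, all of them lower. The 23 without a motif in the stretches searched ran from -0.58 to 0.52, with 4 called, of which Ccne1 and E2f8 were lower and Orc4 and Timeless higher. For Timeless the only stretch searched, chr10:128237816-128238115, lies inside the gene, which begins at 128232065. Estimates lay below 0 for 12 of the 18 with a motif and above 0 for 6. Of the 23 without, 11 lay below 0 and 12 above. Any link between motifs and changes was not tested.

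Other genes of the pathway were taken from lists made beside the members. Of 38 other replication genes 8 were called (21.1%, beside 13.8% of all genes), 6 lower (15.8%, beside 7.33%) and 2 higher (5.26%, beside 6.51%). Their median was -0.03 on the log2 scale. Rnaseh2c, a subunit of the nuclease that removes RNA from DNA, fell from 1372, 1570, 1476 and 1210 normalized counts to 699, 472, 718 and 479 (log2 fold change -1.27, limma adjusted p = 0.000327). Pold4, the small subunit of polymerase delta beside Pold1, fell as well (-0.49, adjusted p = 0.0139), and Tonsl, which works in recovery of stalled forks, rose (0.48, adjusted p = 0.0139). Of 13 other E2F and pocket protein genes 3 fell (23.1%, beside 7.33% of all genes) and 0 rose (beside 6.51%), and the median was 0.00478. The 3 were E2f6 at -0.40, Rbl1 at -0.31 and E2f4 at -0.28, and the estimates of 7 of the 13 lay above 0.

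Of 22 other genes of the G1/S kinases and checkpoints 2 rose and 2 fell (18.2% called). Cdkn1a, which encodes p21, the inhibitor of the cyclin E kinase, rose from 662, 452, 695 and 572 normalized counts to 1367, 1740, 1267 and 1784 (log2 fold change 1.37, limma adjusted p = 0.000225). Each Prmt5-null library was far above the highest control, and the groups did not overlap. Rad9b fell (-0.79, adjusted p = 0.0123), and so did Atr, the kinase that answers stalled forks (-0.51, adjusted p = 0.00916), while Ccnd3, which encodes cyclin D3, rose (0.44, adjusted p = 0.00699). Of 20 mitosis genes 3 were called (15%): Top2a (-0.35) and Ube2c (-0.31) fell, and Ttk (0.27) rose.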

How the data were processed

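RNA was measured in 4 control and 4 Prmt5-null libraries, grouped by the genotype in the labels. Per the labels, the authors trimmed reads with Trimmomatic 0.32, aligned them with STAR 2.3.0e to GRCm38 (mm10), counted them on exons with featureCounts 1.4.4 and normalized with DESeq2 1.14.1, and the deposited signal is the count divided by a size factor, from which whole reads were recovered for 100% of values, within 0.01 of a whole read. The deposited rMATS tables hold inclusion levels and reads, and also the authors' own p-values and differences, which were not used.

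Genotypes were compared with limma 3.58.1 (R 4.3.3, eBayes with a trend) on log2(value + 1), genes with a mean of at least 10. Alternatives were edgeR 4.0.16 and DESeq2 1.42.0 on recovered reads, other filters, pseudocounts and normalization, each library left out, and the 2 experiments named in the series' design text as a block in all 18 placements, since no label ties them to libraries. Fits were run on simulated counts with the same spread set for all genes. The changes planted there were larger than any member's, so smaller changes were not tried. The members and lists were chosen with earlier results of these data known. Genes given library by library are called members, up to 5 per role, and the highest of each role. Mcm5, Mcm10 and Cdc7 were given so after their values were seen. Other genes named are at most the 3 largest called of each list, and Ccnd3 was added after its value was seen. Lengths and exons are from GENCODE vM21. No sample column was left out.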

Additional observations from a re-analysis of the deposited data

Results flagged for a closer look

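In 4 of the 102 groups of 4 libraries that the members gave, 1 library stood apart from the other 3 by Dixon's criterion at 95%, which chance flags in about 1 in 20 groups. In PRMT5-10770, Cdt1 was low at 2149 normalized counts, Pcna was high at 14531 and Pole was low at 5858. In CTRL-10370, Gmnn was high at 3694. The cause was not tested.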

How the results depend on the processing

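The number of members called was 7 at an adjusted p below 0.05 (13.7%, beside 13.8% of all genes). With filters at a mean of 1 and 50 it was 6 (11.8%, beside 10.3%) and 10 (19.6%, beside 15.8%). It lay between these with edgeR, quantile normalization and pseudocounts of 0.5 and 5 (13.7% to 15.7%, beside 13.8% to 14%). It was 3 without the trend (5.88%, beside 11% of all genes), 13 with DESeq2 (25.5%, beside 18.9%), 3 at an adjusted p below 0.01 (5.88%, beside 5.98%), 3 to 12 with the experiment as a block in its 18 placements (5.88% to 23.5%, beside 10.7% to 18.5%), and 3 to 7 without 1 library (5.88% to 13.7%, beside 8.45% to 14.6%). The members' share was below that of all genes in 13 of the 18 placements and without 7 of the 8 libraries, and above it in the others. Fits without a library have fewer samples. Members at 1.5-fold numbered 0, beside 1053 of all 16250 genes (6.48%). Without 1 library they numbered 0 to 2, beside 792 to 1170 of all genes. The 2 were Orc4 and Ccne1 without PRMT5-10617, where 910 of 16242 genes passed. Among all genes 2249 were called, 971 at an adjusted p below 0.01, and 1371 (without PRMT5-10771) to 2369 (without PRMT5-10770) with a library left out. With an inclusion difference of at least 0.25, 1 member, Cdc7, kept an rMATS row. The mean control level over the members was 1484 per kb of exon union and 1965 per kb of the longest transcript. The median log2 fold change of the members stayed below 0 in every fit.

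None of the called members changed sign. E2f7, at -0.0039, changed sign with quantile normalization (0.0215), edgeR (0.0166) and DESeq2 (0.0168). Without 1 library in turn, members near 0 crossed it on the log2 scale: Orc2 ran from -0.0308 to 0.0172, Pcna from -0.0727 to 0.0716, Rfc2 from -0.0958 to 0.0283, Prim1 from -0.0244 to 0.0977, Pold2 from -0.0774 to 0.0648, Ccne2 from -0.123 to 0.0134, E2f2 from -0.159 to 0.0275, E2f7 from -0.0688 to 0.128 and Tipin from -0.169 to 0.0048. No paired analysis was possible because the groups share no replicate numbers. With 4 libraries a genotype the smallest exact permutation p is 0.0286.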
